A study of Mus musculus with 9 samples.

Results

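The 7 genes described here encode the enzymes of transsulfuration and of hydrogen sulfide metabolism: Cth, Cbs, Mpst, Tst, Sqor, Ethe1 and Suox. They were chosen by name for the reactions their products catalyse, and they are 7 of 54532 genes listed in the deposited table. All 7 had a mean of at least 0.5 FPKM (fragments scaled to exon length and to a size for each library) over the 9 libraries. They were thus among the 11852 genes tested. Poly(A) RNA of mouse liver was sequenced in 3 libraries each of wild type mice on plain drinking water, mice lacking Cth on plain drinking water, and mice lacking Cth that received 1% betaine. Both knockout groups carry the Cth knockout, so betaine was given only on that genotype. How the knockout was built, and the age, sex and strain of the mice, are not given in the sources used here. Nothing in the labels says that libraries of a group come from separate animals. The p-values thus measure only the spread between these samples, which may be in part technical.

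Homocysteine leaves the methionine cycle when cystathionine beta-synthase, the product of Cbs, joins it to serine, and cystathionine gamma-lyase, the product of Cth, then splits the cystathionine into cysteine. Both enzymes can also release hydrogen sulfide, and 3-mercaptopyruvate sulfurtransferase (Mpst) forms it by another route from a cysteine product. In mitochondria sulfide is removed by oxidation: Sqor passes its electrons to ubiquinone, Ethe1 oxidises the persulfide that results, Tst moves sulfur to form or use thiosulfate, and Suox turns sulfite into sulfate. Liver is a main site of this chemistry.

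The reads recovered from the deposited values came to 15184972 to 17473958 per library, and 3 reads in 1 kb of exon equalled 0.162 to 0.222 FPKM (counting error only). The library sizes behind the FPKM were not these totals. The size was 13513377 against 15184972 reads in knockout replicate 1, and 18528021 against 16344008 in betaine replicate 2. Sizes lay below the totals in all 3 knockout libraries, and on both sides of them in the other groups. How they were set is not given in the sources used here. Wild type replicate 3 stood apart before any comparison. It held 26.6 FPKM of Xist, against at most 0.0124 FPKM in the other 8 libraries, and 0 reads from 4 Y-linked genes, against 1512 to 2393 reads. By these transcripts it read as female and the other 8 libraries as male, so the wild type group held more than 1 animal. The part of sex in the comparisons with wild type was not tested. The hepatocyte marker genes summed to 55218 to 67253 FPKM in wild type, 45765 to 59046 in the knockout and 35058 to 46163 with betaine, so the defining transcripts of liver were present in every library. Summed Kupffer cell and macrophage markers were 178 to 218, 117 to 146 and 92.3 to 237 FPKM, and summed sinusoidal endothelial markers 37.9 to 67.6, 28.4 to 37.9 and 22.9 to 36.9 FPKM, in the same order of groups. In the knockout against wild type 1 of 8 hepatocyte markers was higher and 1 lower, 1 of 7 endothelial markers was lower, and limma called 0 of 8 Kupffer cell markers (2 at an unadjusted p under 0.05). With betaine against wild type 1 hepatocyte and 2 endothelial markers were lower. The part of these differences in the results below was not tested. In tissue RNA, fewer cells of a type and less RNA per cell cannot be told apart.

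Cth (ENSMUSG00000028179) lies on the minus strand of chromosome 3, at bases 157894248 to 157925077 of GRCm38, the assembly also called mm10. Its level was 285, 257 and 219 FPKM in wild type replicates 1 to 3, 0.583, 0.278 and 0.770 FPKM in the knockout, and 0.319, 0.309 and 0.780 FPKM in the knockout with betaine. Every wild type library stood far above every knockout library, and the knockout groups overlapped. In reads, wild type held 12546, 10949 and 11055, against 65 reads over the 3 knockout libraries (exact 95% Poisson interval 50.2 to 82.8) and 66 over the 3 with betaine (51.0 to 84.0). By library these were 22, 11 and 32 reads in the knockout, and 15, 16 and 35 with betaine. The intervals cover counting error of the pooled reads only, not the spread between libraries. The residue was thus 0.214% of the wild type level in the knockout and 0.185% with betaine, or 467-fold and 540-fold lower. In limma, the log2 difference was -7.95 ± 0.23 (SE) between knockout and wild type (adjusted p = 3.36e-07) and -8.06 ± 0.23 between the betaine group and wild type (adjusted p = 2.95e-07). By its mean, Cth ranked 192nd of the 11852 tested genes in wild type and 11345th in the knockout. Gm43314, an unconfirmed gene model on the same strand inside Cth, went from 1.60 FPKM in wild type to 0.0412 and 0.0242 FPKM in the other groups.

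**Figure D1:**
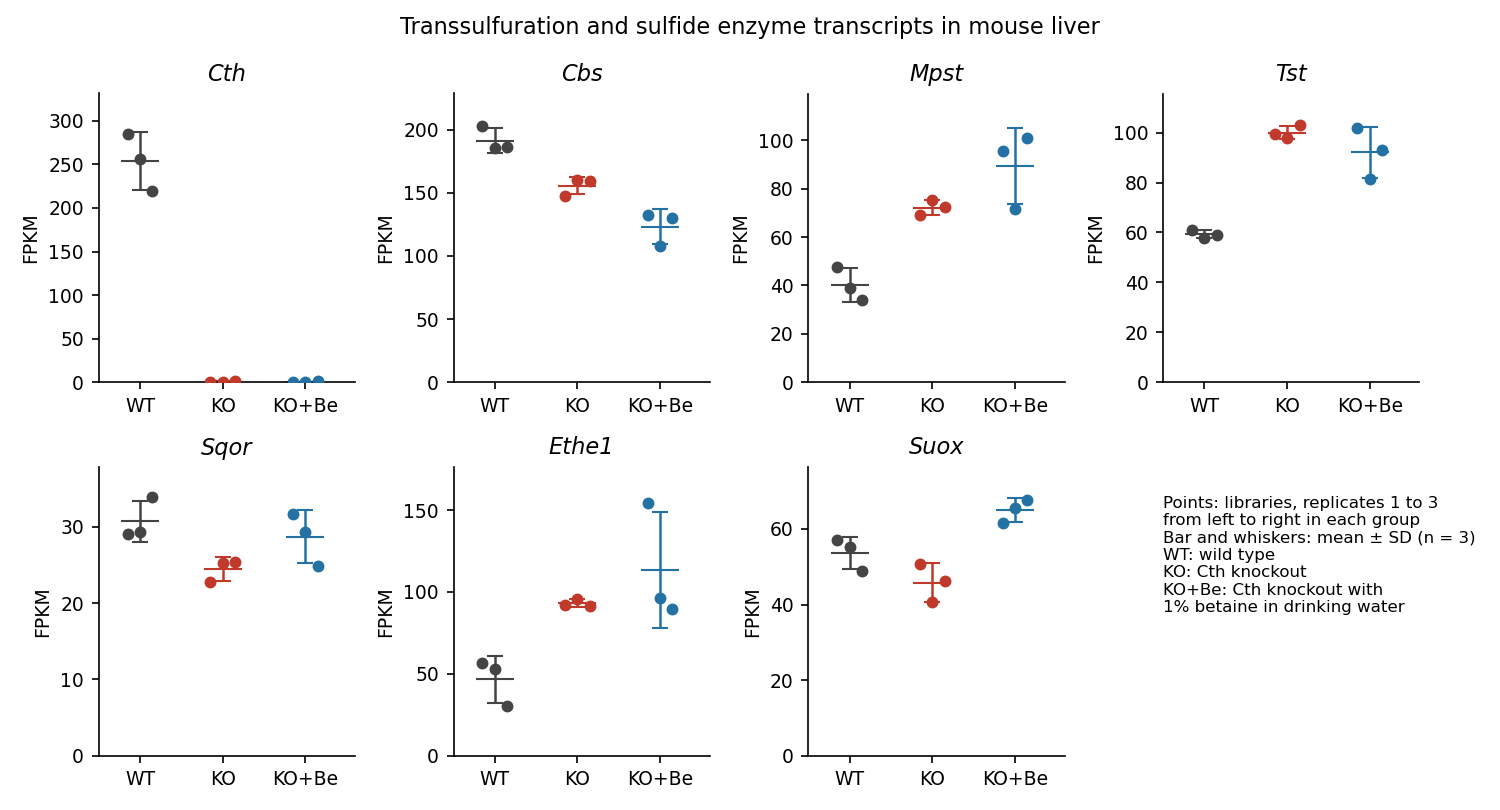
Level of each of the 7 enzyme transcripts in FPKM (vertical axes, each from 0) in the 9 liver libraries, by group; points are libraries and bars the mean ± SD of 3. Mpst, Tst and Ethe1 stand higher in every library of both knockout groups than in any wild type library, and Cbs stands lower.

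In FPKM, Cbs, the entry enzyme of transsulfuration, was lower with each step from wild type to knockout to betaine. The gene (ENSMUSG00000024039) is on the minus strand of chromosome 17, at bases 31608894 to 31637238. It measured 203, 185 and 186 FPKM in wild type, 148, 159.9 and 159 FPKM in the knockout, and 132, 108 and 130.0 FPKM with betaine. The 3 groups did not overlap: the lowest wild type library was above the highest knockout library, and the lowest knockout library above the highest with betaine. Between the betaine group and wild type Cbs fell by 0.64 on the log2 scale (-0.64 ± 0.13, 95% interval -0.93 to -0.35, adjusted p = 0.0179), from 191 ± 10.1 to 123 ± 13.6 FPKM (mean ± SD, n = 3). That call was lost without wild type replicate 1 (adjusted p = 0.0624) and without betaine replicate 3 (adjusted p = 0.0546). Neither single step passed in the main fit on FPKM. With each library's trend on exon length removed, the step from wild type to knockout was -0.06 (adjusted p = 0.749 in limma). Scaling to TPM, read totals or quantiles each called Cbs lower in the knockout than in wild type. There TPM moved the median of all genes by -0.36, and relative to it Cbs stood at -0.36. In the main fit the knockout differed from wild type by -0.30 ± 0.13 (adjusted p = 0.115). The betaine group differed from the knockout by -0.34 ± 0.13 (adjusted p = 0.168), a sign that turned to 0.03 when values were rescaled to TPM. TPM moved the median of all genes by 0.33 in that comparison, and relative to it Cbs stood at -0.31.

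The sequence before the start of Cbs is shown because this was the remaining transsulfuration enzyme, and that of Ethe1 because its fold was the largest among the members other than Cth. Both come from the RefSeq promoter table for GRCm38.p6, which matched 5 of the 7 members, and leave out bases that the annotation places in an exon. Cbs is chr17:31637239-31637455 on the minus strand and Ethe1 is chr7:24587293-24587450 on the plus strand. Capitals mark matches, on either strand, to GGGCGG (GC box), CCAAT and CACGTG (E-box).
Cbs: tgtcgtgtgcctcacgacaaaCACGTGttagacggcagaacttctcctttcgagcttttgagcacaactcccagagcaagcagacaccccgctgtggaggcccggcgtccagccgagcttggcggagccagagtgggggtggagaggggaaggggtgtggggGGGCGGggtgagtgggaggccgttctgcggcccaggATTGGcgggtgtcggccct
Ethe1: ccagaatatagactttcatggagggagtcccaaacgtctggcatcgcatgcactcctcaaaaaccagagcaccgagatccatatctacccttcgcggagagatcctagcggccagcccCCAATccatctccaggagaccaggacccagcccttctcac
Over the whole 250 bases before its start, Cbs held 2 GC boxes, 2 CCAAT matches and 1 E-box, the latter 229 bases before the start. At the start shown Ethe1 held 1 GC box and 1 CCAAT match. Its second start, with a window wholly in exons, had 3 GC boxes and 0 CCAAT matches. Suox held 4 GC boxes and 1 CCAAT match. Sqor held 2 CCAAT matches and 1 to TGATGNAAN, the core of the amino acid response element, which 3.44% of promoters held. The Sqor window, chr2:122771463-122771712, lies inside the gene, which the annotation starts at base 122765237, and holds 0 exonic bases. Of 32851 promoters of 250 bases, 32.7% held GGGCGG, 33.8% CCAAT and 6.02% CACGTG. In the Mpst windows the one match found was to TGACNNNGC, the core of the antioxidant response element, 12 bases before one of its starts, a match held by 10.2% of promoters. These matches describe the letters of the windows only.

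Mpst and Tst are neighbouring sulfurtransferase genes. Mpst (ENSMUSG00000071711, plus strand, bases 78406416 to 78414013) and Tst (ENSMUSG00000044986, minus strand, bases 78399556 to 78405907) lie head to head on chromosome 15, with 508 bases between them, and both rose in the knockout. Mpst measured 47.8, 39.1 and 34.0 FPKM in wild type, 69.0, 75.2 and 72.4 FPKM in the knockout, and 95.4, 71.5 and 101.0 FPKM with betaine. All 6 knockout libraries were above all 3 wild type libraries. Mpst rose by 0.85 ± 0.17 on the log2 scale in the knockout (1.80-fold, adjusted p = 0.0104) and by 1.14 ± 0.17 with betaine against wild type (2.20-fold, adjusted p = 0.00767). The betaine group and the knockout overlapped, because betaine replicate 2 lay among the knockout libraries, and differed by 0.29 ± 0.17 (95% interval -0.09 to 0.67, adjusted p = 0.339).

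Tst, also called rhodanese, measured 61.0, 57.8 and 59.0 FPKM in wild type, 99.6, 97.7 and 103 FPKM in the knockout, and 102, 81.6 and 92.9 FPKM with betaine. Its wild type and knockout libraries were tightly grouped and far apart. Tst rose by 0.75 ± 0.12 in the knockout (1.68-fold, adjusted p = 0.00633) and by 0.63 ± 0.12 with betaine against wild type (1.54-fold, adjusted p = 0.0159). The second call was lost without betaine replicate 3 (adjusted p = 0.0631). Betaine and knockout libraries overlapped, with a difference of -0.12 ± 0.12 (95% interval -0.40 to 0.15, adjusted p = 0.567), which became 0.24 under TPM and 0.06 when scaled to read totals. The tested genes next to this pair did not pass in the knockout: Kctd17 differed by -0.18 (adjusted p = 0.496), Tmprss6 by -0.33 (adjusted p = 0.158), Csf2rb by -0.08 (adjusted p = 0.838) and Ncf4 by 0.16 (adjusted p = 0.683). Their wild type means were 1.34, 186, 0.807 and 0.725 FPKM, in that order. All but Tmprss6 were thus low genes, whose changes the log2 scale used here understates.

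Ethe1, the persulfide dioxygenase of the mitochondrial matrix (ENSMUSG00000064254, chromosome 7, plus strand, bases 24587543 to 24608925), was about 2 times as abundant in the knockout as in wild type. Its level was 56.8, 52.8 and 30.1 FPKM in wild type, 92.0, 95.9 and 91.2 FPKM in the knockout, and 154, 96.3 and 89.8 FPKM with betaine. Wild type replicate 3 was the lowest library and betaine replicate 1 the highest, while the 3 knockout libraries lay within a few FPKM of each other. Ethe1 rose by 1.04 ± 0.27 in the knockout (2.06-fold, adjusted p = 0.0215) and by 1.28 ± 0.27 with betaine against wild type (2.44-fold, adjusted p = 0.0194). Without wild type replicate 3 the differences were 0.76 (adjusted p = 0.0362) and 1.00 (adjusted p = 0.0220). The first call was lost without knockout replicate 1, 2 or 3 (adjusted p = 0.0552, 0.0735 and 0.0565), and the second without betaine replicate 1 (adjusted p = 0.0514). The betaine group differed from the knockout by 0.24 ± 0.27 (95% interval -0.35 to 0.84, adjusted p = 0.618). Zfp575 overlaps Ethe1 by 99 bases on the opposite strand and was at or below 0.0600 FPKM as a group mean.

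Sqor, the sulfide:quinone oxidoreductase that starts sulfide oxidation (ENSMUSG00000005803, chromosome 2, plus strand, bases 122765237 to 122809569), passed in no comparison of the main fit. Scaling to TPM, read totals or quantiles each called it lower in the knockout than in wild type. TPM also called it higher with betaine than in the knockout. In these comparisons TPM moved the median of all genes by -0.36 and 0.33, in that order. Relative to that median Sqor stood at -0.38 and 0.25. Sqor measured 29.0, 29.3 and 33.8 FPKM in wild type, 22.7, 25.3 and 25.4 FPKM in the knockout, and 31.7, 29.4 and 24.9 FPKM with betaine. Knockout libraries all stood below wild type, and betaine libraries overlapped both. The difference between knockout and wild type was -0.32 ± 0.13 (adjusted p = 0.0977), between the betaine group and the knockout 0.22 ± 0.13 (adjusted p = 0.346), and between the betaine group and wild type -0.10 ± 0.13 (adjusted p = 0.632).

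Suox, sulfite oxidase, which needs the molybdenum cofactor and hands electrons to cytochrome c (ENSMUSG00000049858, chromosome 10, minus strand, bases 128669894 to 128674073), had its highest level with betaine. It measured 57.0, 55.1 and 48.9 FPKM in wild type, 50.7, 40.6 and 46.1 FPKM in the knockout, and 61.5, 65.5 and 67.7 FPKM with betaine. The betaine libraries stood above all others, whereas wild type and knockout overlapped. Between the betaine group and the knockout the difference was 0.50 ± 0.13 (1.42-fold, 95% interval 0.22 to 0.79), which did not pass over all genes (adjusted p = 0.0961). Under TPM it was 0.87 and passed (adjusted p = 0.0281), and relative to the shifted median of all genes it was 0.54. Knockout and wild type differed by -0.23 ± 0.13 (adjusted p = 0.207), and the betaine group and wild type by 0.27 ± 0.13 (adjusted p = 0.182).

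Of the 7 transcripts, Mpst, Tst and Ethe1 rose and Cth fell in the knockout against wild type, 4 of 7, where 25.6% of all tested genes passed, 12.8% higher and 12.7% lower. Without overlap between groups were 6 of the 7, against 46.8% of all genes. The fall of Cth checks the labelled genotype. Of the 6 other enzymes 3 passed here, and 5 had groups that did not overlap. With betaine against wild type the same 4 passed in the same directions and Cbs fell, 5 of 7, against 11.7% of all genes (5.87% higher and 5.78% lower), and 6 of 7 had groups that did not overlap, against 32.2%. Without Cth these counts were 4 and 5 of 6. The comparisons with wild type share the wild type libraries. Between the betaine group and the knockout limma called 0 of 7, against 0.0422% of all genes (5 genes). At an unadjusted p under 0.05 there were 2 of 7, Cbs and Suox, and 2672 of all 11852. Those 2 were also the members whose groups did not overlap, where 30.3% of all genes had none. The median log2 difference of the 7 was -0.23, 0.22 and 0.27 for knockout against wild type, betaine against knockout and betaine against wild type, and without Cth 0.26, 0.23 and 0.45. All tested genes had medians of 0.02, -0.0016 and 0.005.

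**Figure D2:**
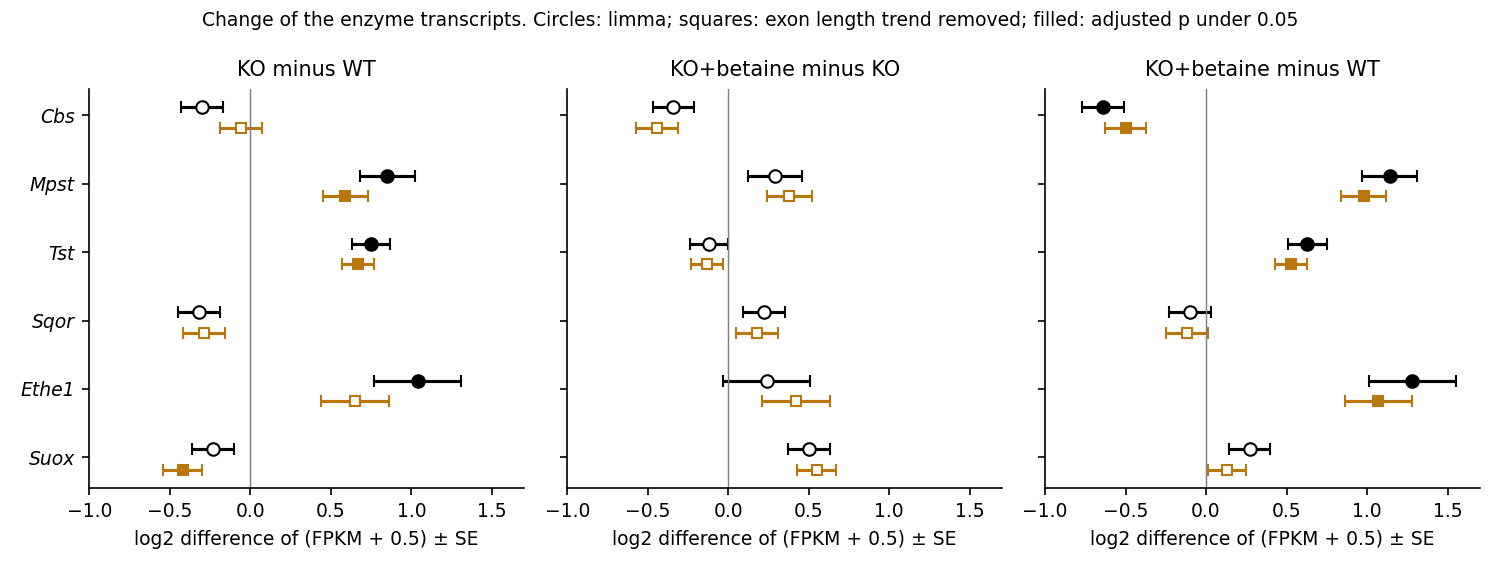
Log2 difference ± SE (horizontal axes) of the 6 enzyme transcripts other than Cth in the 3 comparisons; circles are the limma fit over 9 libraries, squares the same with the exon length trend removed, and filled symbols passed an adjusted p of 0.05. Mpst, Tst and Ethe1 lie above 0 in both comparisons with wild type, and none passed between the betaine group and the knockout, where the signs of Cbs and Tst turned under TPM.

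Exon length moved with the differences. Across 11849 tested genes the Spearman correlation of the log2 difference with exon length was -0.461 for knockout against wild type, 0.285 for betaine against knockout and -0.302 for betaine against wild type, a description over genes that share the same libraries. Ethe1 has the shortest exons of the 7 (1484 bases) and Cbs the longest (7485 bases). The running median over 501 genes at the length of Ethe1 was 0.40 in the knockout against wild type, and that at the length of Cbs was -0.22. The same median was 0.28 for Mpst, 0.08 for Tst, 0.19 for Suox and -0.06 for Sqor. With each library's length trend removed, Mpst differed by 0.59 (adjusted p = 0.0218) and Tst by 0.67 (adjusted p = 0.00827), and both passed. Ethe1 was then at 0.65 and did not pass (adjusted p = 0.0636), and with wild type replicate 3 also left out it was at 0.43 (adjusted p = 0.123). Cbs was at -0.06 in the knockout (adjusted p = 0.749), while Suox was at -0.42 and passed (adjusted p = 0.0365). Between the betaine group and wild type, Cbs at -0.50 (adjusted p = 0.0413), Mpst at 0.98 (adjusted p = 0.00745), Tst at 0.53 (adjusted p = 0.0172) and Ethe1 at 1.07 (adjusted p = 0.0198) passed.

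**Figure D3:**
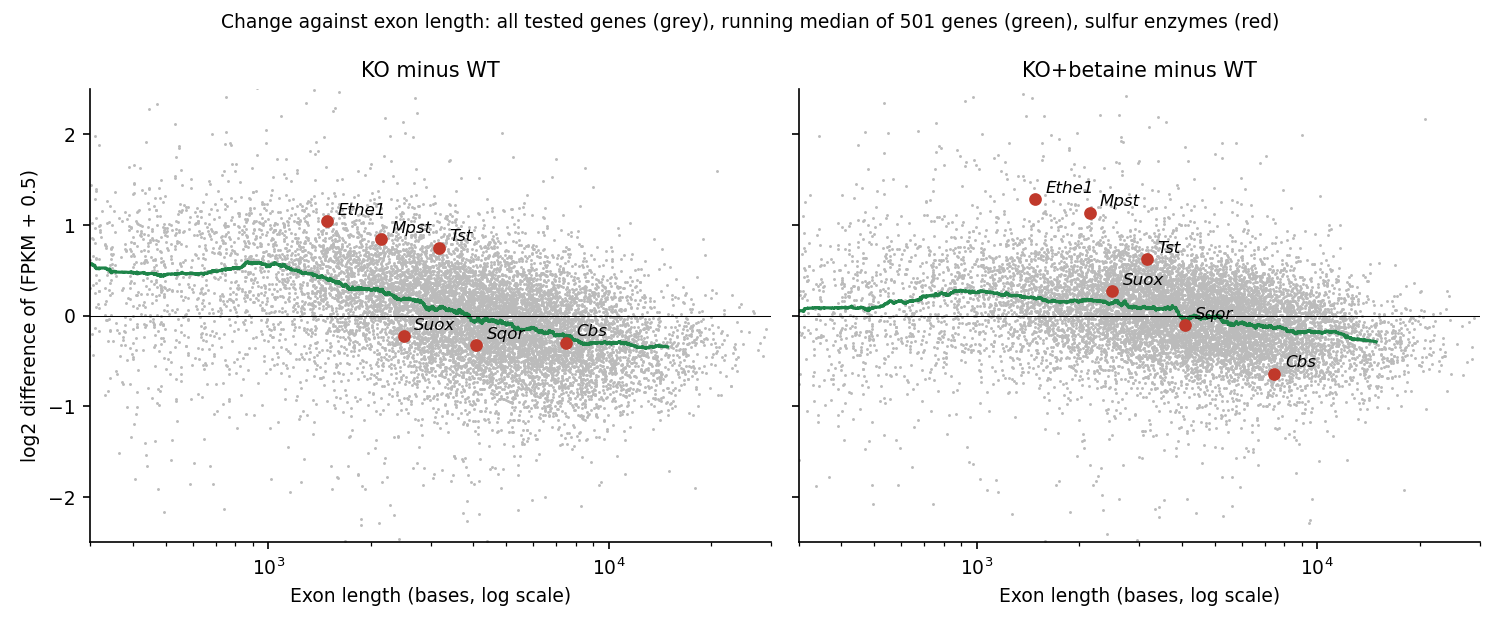
Log2 difference (vertical axes) against exon length in bases (horizontal axes, log scale) for all tested genes (grey) in both comparisons with wild type, with the running median over 501 genes as a line and the enzymes other than Cth in red. In the knockout against wild type the line falls from short to long genes. Mpst, Tst and Ethe1 lie above it, Sqor and Suox below it, and Cbs close to it. The axes leave out 321 and 312 genes.

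The enzymes differed in FPKM, which divides reads by union exon length, so the order between genes depends on the lengths used. In reads, the wild type libraries together held 70325 of Cbs and 34550 of Cth. By FPKM Cth was the highest in wild type. It was followed by Cbs at 191 ± 10.1, Tst at 59.3 ± 1.61, Suox at 53.7 ± 4.21, Ethe1 at 46.6 ± 14.4, Mpst at 40.3 ± 7.01 and Sqor at 30.7 ± 2.70 FPKM. Suox and Ethe1 overlapped there, as did Ethe1 and Mpst. In the knockout the order was Cbs, Tst, Ethe1, Mpst, Suox, Sqor and Cth, and no neighbours in it overlapped. With betaine, Cbs, Ethe1, Tst and Mpst overlapped from each to the next, and stood above Suox, Sqor and Cth. The summed level of Cbs and Mpst was 232 ± 16.8 FPKM in wild type, 228 ± 9.69 in the knockout and 213 ± 29.0 with betaine. That of the 4 enzymes that act on sulfide and its products, Sqor, Ethe1, Tst and Suox, was 190.2 ± 16.5, 263 ± 3.38 and 299 ± 43.3 FPKM. These sums depend on the scaling. All FPKM of a library together came to 373773 to 449224 in wild type and 533733 to 584197 in the knockout. In TPM, a scaling chosen for the sums after seeing the data, the 4 enzymes summed to 434 to 464 in wild type and 444 to 498 in the knockout, which overlap, and to 605 to 731 with betaine. Cbs and Mpst together were then at 499 to 589, 382 to 434 and 472 to 507 TPM.

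Ratios within a library do not depend on its scaling. These pairs were chosen after their values were seen and carry no test. The level of Mpst divided by that of Cbs was 0.235, 0.211 and 0.182 in wild type, 0.467, 0.470 and 0.455 in the knockout, and 0.722, 0.665 and 0.777 with betaine. The 3 groups were fully separate in this ratio, the knockout being the most uniform. Ethe1 divided by Sqor was 1.55 ± 0.575 in wild type, 3.81 ± 0.230 in the knockout and 3.91 ± 0.834 with betaine. Tst divided by Sqor was 1.94 ± 0.181, 4.10 ± 0.266 and 3.24 ± 0.479, and no groups overlapped. Mpst divided by Tst was 0.679 ± 0.104, 0.722 ± 0.0416 and 0.967 ± 0.108, with wild type and knockout overlapping. Suox divided by Ethe1 was 1.22 ± 0.347, 0.494 ± 0.0651 and 0.611 ± 0.188. Suox divided by Sqor was 1.76 ± 0.277, 1.88 ± 0.321 and 2.30 ± 0.396, and all groups overlapped. Relative to Sqor, Ethe1 and Tst thus stood higher in both knockout groups than in wild type, whereas Suox overlapped. Ratios between genes of different length still carry the length trend.

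**Figure D4:**
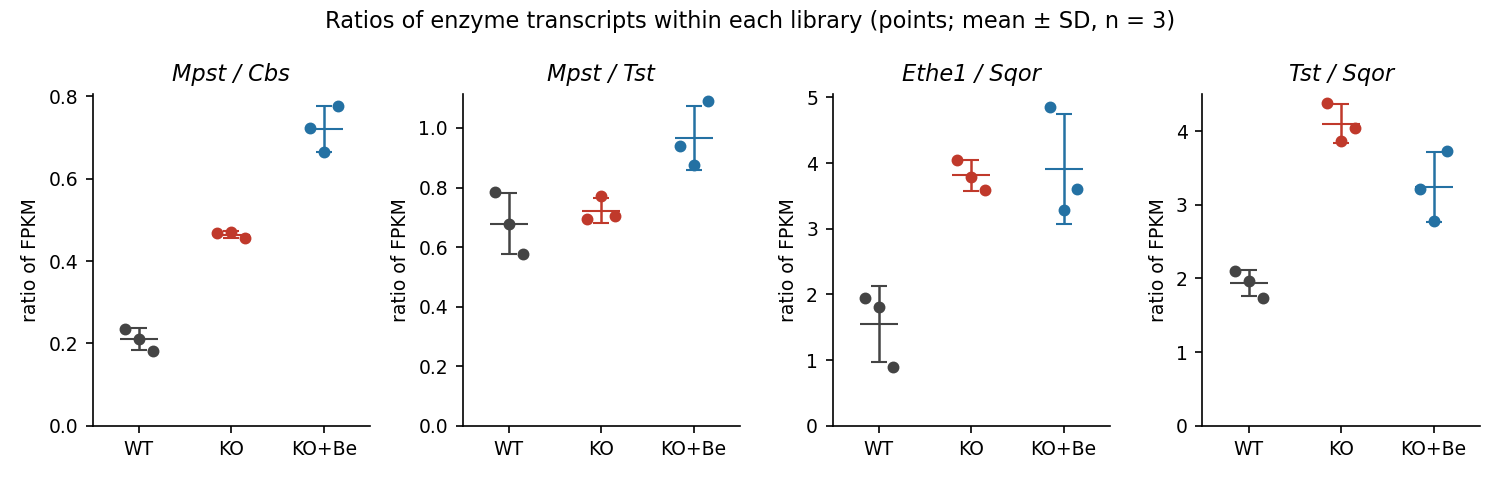
Ratio of FPKM between pairs of the enzymes (vertical axes, each from 0) in the 9 libraries by group; points are libraries and bars the mean ± SD of 3. Mpst divided by Cbs separates all 3 groups, from 0.210 ± 0.0265 in wild type to 0.721 ± 0.0562 with betaine.

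The other genes of the pathway were read in 5 lists, against shares over all genes of 12.8% higher and 12.7% lower in the knockout against wild type, and 5.87% and 5.78% with betaine against wild type. In the methionine cycle, which supplies homocysteine, 1 of 12 tested genes rose and 1 fell in the knockout against wild type (median -0.07), near those shares, and 1 rose and 4 fell under TPM (median -0.45). Bhmt, the enzyme that moves a methyl group from betaine to homocysteine, went up from 453 to 1139 FPKM (1.34 ± 0.19, adjusted p = 0.00567) and measured 1711 FPKM with betaine (1.90 ± 0.19 against wild type, adjusted p = 0.00337). Gnmt, which consumes S-adenosylmethionine, fell from 1335 to 704 FPKM in the knockout (-0.93 ± 0.21, adjusted p = 0.0138) and measured 1326 FPKM with betaine. Its difference between the betaine group and the knockout did not pass in the main fit (0.90 ± 0.21, adjusted p = 0.0886). With betaine against wild type 2 of 12 rose, Bhmt and its relative Bhmt2 (0.59 ± 0.17, adjusted p = 0.0499). Only 1 of 12 was higher with the length trend removed, under quantile normalization and under TPM, where 1 was also lower.

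Of 11 tested genes of cysteine uptake and use, 1 rose and 1 fell in the knockout against wild type (median -0.08), near the shares over all genes, with 0 higher and 4 lower under TPM (median -0.50) and 1 higher and 3 lower on read totals. Slc3a1, the heavy chain of a cystine transporter, fell from 19.5 ± 7.30 to 4.16 ± 1.26 FPKM (-2.08 ± 0.35, adjusted p = 0.00687), and was lower with betaine too (-1.77, adjusted p = 0.0174). Got2, the mitochondrial aspartate aminotransferase, rose from 79.5 to 117 FPKM (0.56 ± 0.16, adjusted p = 0.0291). Without wild type replicate 3 the list's count was 0 higher and 2 lower. Against wild type the betaine group had 1 higher, Slc1a4 (1.01 ± 0.22, adjusted p = 0.0221), a neutral amino acid transporter, and 2 lower. The second of these was Csad, which makes the taurine precursor hypotaurine from cysteine sulfinate, at 155 ± 55.2 FPKM in wild type and 14.8 ± 9.77 FPKM with betaine (-3.48 ± 0.67, adjusted p = 0.0184). In the knockout without betaine Csad was at 43.1 ± 29.1 FPKM (-2.04 ± 0.67 against wild type, adjusted p = 0.0558). The betaine group differed from the knockout by -1.44 ± 0.67 (adjusted p = 0.243). Slc7a11 and Slc7a9 were below the filter.

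Among 16 tested genes of persulfide and thiosulfate handling, 4 rose and 1 fell in the knockout (median 0.15). Txn1, the cytosolic thioredoxin, rose from 145 to 249 FPKM (0.78 ± 0.15, adjusted p = 0.00946), and so did the mitochondrial thioredoxin Txn2 (0.74 ± 0.19, adjusted p = 0.0203), Lyrm4 of the cysteine desulfurase complex (0.61 ± 0.15, adjusted p = 0.0181) and the thiosulfate sulfurtransferase Tstd1 (0.87 ± 0.24, adjusted p = 0.0274). Tstd2, of the same rhodanese domain family, fell (-0.61 ± 0.19, adjusted p = 0.0469). With the length trend removed the count was 2 higher and 0 lower, and under TPM 1 higher and 5 lower. With betaine against wild type, Tstd1 (1.11 ± 0.24, adjusted p = 0.0210) and Tstd3 (0.88 ± 0.15, adjusted p = 0.0106) rose and Kyat3 (-1.17 ± 0.23, adjusted p = 0.0170), an aminotransferase, fell.

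The list of molybdenum cofactor genes, other enzymes that use this cofactor, and sulfate genes had 0 higher and 1 lower of 14 tested in the knockout (median -0.17, and 6 at an unadjusted p under 0.05 in limma). The 1 was Bpnt2, listed under its older name Impad1, a Golgi phosphatase that acts on the nucleotide left by sulfation (8.64 to 4.36 FPKM, -0.92 ± 0.19, adjusted p = 0.0111). The count was 0 higher and 6 lower under TPM (median -0.57), and 2 higher and 3 lower with the length trend removed. In limma 0 of 14 passed with betaine against wild type (1 at an unadjusted p under 0.05). The sulfate transporter Slc26a1 differed by 0.79 ± 0.18 between the betaine group and the knockout (adjusted p = 0.0886).

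Ubiquinone synthesis and the respiratory carriers, which accept the electrons of Sqor and Suox, had 10 higher and 0 lower of 16 tested in the knockout against wild type, with a median of 0.46. Cycs, cytochrome c, rose from 19.0 ± 1.25 to 45.0 ± 2.22 FPKM (1.22 ± 0.12, adjusted p = 0.00447). Coq7, a hydroxylase of ubiquinone synthesis, rose from 1.93 ± 0.280 to 4.61 ± 0.163 FPKM (1.08 ± 0.15, adjusted p = 0.00567). Uqcrc1 of respiratory complex III (0.63 ± 0.16, adjusted p = 0.0231) and Coq6 (0.47 ± 0.12, adjusted p = 0.0235) rose as well. The count was 5 higher without wild type replicate 3, 4 higher with the length trend removed and 3 higher with both, and 2 higher and 2 lower under TPM. With betaine against wild type 5 of 16 rose (median 0.40), among them Cycs (0.87, adjusted p = 0.00699), Coq7 (0.88, adjusted p = 0.0105), Coq2 (0.67, adjusted p = 0.0120) and Coq5 (0.47, adjusted p = 0.0340). Between the betaine group and the knockout limma called 0 genes of each of the 5 lists, with 5, 1, 5, 1 and 2 at an unadjusted p under 0.05 in the order given here. Under TPM, which moved the median of all genes by 0.33, 4, 2, 4, 3 and 3 were higher. Without wild type replicate 3, 1 gene of the cysteine list and 1 of the molybdenum list were higher.

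Likeness of pattern was measured as the root mean square difference of log2 levels, each gene centred on its mean over the 9 libraries, among 4533 genes. For Tst the nearest were Ppil1 (0.0611), Slc25a5 (0.0702), the ADP/ATP carrier, and Apool (0.0762). For Cbs they were Fgfr4 (0.0774), Golph3 (0.104) and Cept1 (0.114), each lower in the knockout than in wild type by its mean and lower again with betaine. That shared pattern follows from how these genes were picked. Mpst was nearest to Rogdi (0.0945), Apol9b (0.114) and Thnsl2 (0.126), Sqor to Npc2 (0.0634) and Ndrg2 (0.0889), and Suox to Slc38a10 (0.0776), Gnpat (0.0777) and Afg3l2 (0.0792). Ethe1 had looser matches in Hsd3b3 (0.187), Car1 (0.191) and Pex11g (0.197). No gene came near Cth, for which Acnat2 (2.58), Csad (2.59) and Slc3a1 (2.90) were the nearest. Mpst and Tst differed by 0.258, which placed Tst 108th in nearness to Mpst and Mpst 911th in nearness to Tst.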

How the data were processed

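Per the labels' protocols, poly(A) RNA of mouse liver was made into 9 libraries with an NEBNext Ultra kit. The authors deposited 1 FPKM value per gene and library. The submitters' processing notes name DESeq2 1.16.1, featureCounts 1.5.0-p3, HISAT2 2.0.5 and genome build mm10; their roles, and strand, are not given in the sources used here. Symbols were matched for 54409 of 54532 genes. With union exon lengths from GENCODE M21, 98.3% to 98.6% of low values (20 reads or fewer) lay no more than 0.05 from a whole read, which gave recovered reads per library, counting error only.

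Genes whose mean reached 0.5 FPKM were tested on log2(FPKM + 0.5), which understates changes of low genes. One model over 3 groups of 3 was fitted in limma 3.58.1 (R 4.3.3; eBayes with trend and robust), two-sided, with Benjamini-Hochberg adjustment over all 11852 genes in each of 3 comparisons and a threshold of 0.05. The step was tested on simulated data. Alternatives were other pseudocounts, filters, scalings (TPM, read totals, quantile), removal of each library's exon length trend, limma-voom on recovered reads, a replicate block and leaving out each library. Named genes were the 7 enzymes, up to 4 genes per list and comparison with the smallest p past the threshold (otherwise up to 2), the 3 nearest in pattern with a mean of at least 5 FPKM, and up to 2 tested neighbours per side; 1 gene that the rule gave is not reported here. The members and lists were chosen with earlier results of these data known. Python 3.11.15, numpy 2.4.6, pandas 2.3.3 and matplotlib 3.10.9 were used.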

Additional observations from a re-analysis of the deposited data

How the results depend on the processing

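In the knockout against wild type, Cth, Mpst and Tst kept their calls and directions under all 23 alternatives, and Ethe1 in 16 of 23; it was also lost with no filter on low values (adjusted p = 0.0544) and with the replicate block plus length removal (0.0552). TPM and quantile normalization each called all 7 members, adding Cbs, Sqor and Suox as lower. Read total scaling called 6, adding Cbs (-0.42, adjusted p = 0.0200) and Sqor (-0.45, adjusted p = 0.0466) as lower. Leaving out 1 library gave 3 to 4 members. Between the betaine group and the knockout, TPM called 3, Mpst (0.66), Sqor (0.58) and Suox (0.87), and leaving out any 1 library gave 0. Signs turned there for Cth (TPM 0.08; leaving out 1 library -0.33 to 0.04, with 0.04 without knockout replicate 3 and 0.0019 without betaine replicate 2), Cbs (TPM 0.03), Tst (TPM 0.24, read totals 0.06) and Ethe1 (leaving out 1 library -0.00063, without betaine replicate 1, to 0.39), none of them past the threshold; the cause was not tested. For betaine against wild type, fitting only the 2 groups, with fewer samples, called 2 members, Mpst and Cth, and leaving out 1 library gave 3 to 5, with 3 without betaine replicate 3. Counts over all genes ran from 896 to 4262 around 3029, from 0 to 1754 around 5 (878 without betaine replicate 1) and from 351 to 1643 around 1381. Of the genes called in the knockout, 50.1% were higher in FPKM, 13.8% under TPM (median shift -0.36) and 37.5% on read totals; for betaine against wild type 50.4%, 53.9% and 69.6%. Same-numbered libraries deviated together with r of -0.227 to 0.098 (9 pairs), so the numbers were not taken as pairs; with the replicate block 4, 0 and 5 members and 2210, 0 and 671 genes were called, and with the block plus length removal Cbs lost its call in betaine against wild type (-0.50, adjusted p = 0.0834).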

Other observations

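Around the 7 enzyme genes, 24 tested neighbours of other function were read in the same fit, and 4 were higher and 1 lower in the knockout against wild type, where 12.8% of all tested genes were higher and 12.7% lower. Ndufv3, a subunit of respiratory complex I near Cbs, rose by 1.12 (adjusted p = 0.0166), U2af1, a splicing factor also near Cbs, by 0.42 (adjusted p = 0.0403), Srsf11, a splicing factor near Cth, by 0.70 (adjusted p = 0.0289) and Rps26, a ribosomal protein gene near Suox, by 0.71 (adjusted p = 0.0135). Rab5b, an endosomal GTPase near Suox, fell (-0.59, adjusted p = 0.0233). In limma 0 of the 24 passed between the betaine group and the knockout (4 at an unadjusted p under 0.05), and 0 between the betaine group and wild type (2 at an unadjusted p under 0.05).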
